A study of Mus musculus with 9 samples.

Results

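The macrophage transcripts described here are those of 10 genes, *C1qa*, *C1qb*, *C1qc*, *Csf1r*, *Cd68*, *Adgre1*, *Cx3cr1*, *Mrc1*, *Tyrobp* and *Fcer1g*, which were followed in Gfra1+ spermatogonial stem cells (SSC) and in induced pluripotent stem cells (iPSC). The genes were chosen by name as macrophage genes and were found in the deposited table by the chromosome, start and end of each locus against GRCm38 gene coordinates, and not by the names printed in the table. Of the 10 genes, 9 had a locus among the 54914 of the table, and no locus overlapped *Cx3cr1* (chr9:120048683-120068296), the receptor for fractalkine, so that it has no value.

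RNA-seq was performed on 9 libraries in 3 groups of 3. SSC were obtained from digested testes of pups about a week old, by plating out somatic cells and then by magnetic sorting for Gfra1, and were not passaged (passage 0). SSCiPSC and fiPSC were clonal lines reprogrammed with doxycycline from SSC and from fibroblasts of male fetuses, and the iPSC were sorted for SSEA1 to lower the share of feeder cells. The labels give passages 10 to 11 for both iPSC groups and a medium with LIF and DOX, whereas the methods of the study give later passages and describe a gradual withdrawal of doxycycline. The cells of all 3 groups came from mice with the doxycycline activator Gt(ROSA)26Sortm1(rtTA*M2)Jae and the inducible reprogramming factors of Col1a1tm3(tetO-Pou5f1,-Sox2,-Klf4,-Myc)Jae/J. The labels do not say whether replicates came from separate animals or lines, so p-values measure the spread between these libraries only.

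Macrophages are phagocytes that live in most tissues, including the interstitium and the tubule surface of the testis. They depend on Csf1r, the receptor for the growth factor Csf1, and take up dying cells and coated particles through scavenger, lectin and Fc receptors. Macrophages are a major source of C1q, the recognition part of the classical complement pathway, which is assembled from chains encoded by *C1qa*, *C1qb* and *C1qc*. Tyrobp and Fcer1g are adaptors that carry an immunoreceptor tyrosine-based activation motif (ITAM) and pass the signal of many receptors to kinases such as Syk, and they are also used by mast cells, neutrophils and NK cells. Much of this gene programme is driven by the transcription factor PU.1, encoded by *Spi1*, which binds purine-rich DNA.

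The C1q genes lay side by side on the minus strand of chromosome 4 (GRCm38, chr4:136880126-136898844), in a stretch of 18719 bp with gaps of 3600 bp between *C1qb* and *C1qc* and 2979 bp between *C1qc* and *C1qa*. The other genes were on separate chromosomes. *Mrc1* spans chr2:14229414-14332023 (plus strand), *Tyrobp* chr7:30413782-30417582 (plus strand) and *Fcer1g* chr1:171229572-171234349 (minus strand). *Adgre1* spans chr17:57358581-57483529 (plus strand), and its locus covered 64.6% of the gene. *Cd68* lies at chr11:69664213-69666170 (minus strand), but its locus ran from 69663221 to 69666421, so that 38.8% of that locus was outside the gene.

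The bases before the start site are shown for genes that were followed together, since a purine-rich box bound by PU.1 can be searched in them. The RefSeq promoter table (GRCm38.p6) had an entry for 6 of the 10 genes. In each, the 250 bases before the start site were searched for GAGGAA on both strands (TTCCTC on the reverse strand), which are printed in capitals. The letters were found for 4 of the 6 genes, against 23.3% of all 32851 promoters of the table, and their presence is a description of the sequence and not a measured binding site. The promoters of *C1qb* (chr4:136886201-136886450, minus strand), *C1qc* (chr4:136892915-136893164, minus strand), *Mrc1* (chr2:14229164-14229413, plus strand) and *Cd68* (chr11:69666171-69666420, minus strand) follow, each from 5′ to 3′.
C1qb: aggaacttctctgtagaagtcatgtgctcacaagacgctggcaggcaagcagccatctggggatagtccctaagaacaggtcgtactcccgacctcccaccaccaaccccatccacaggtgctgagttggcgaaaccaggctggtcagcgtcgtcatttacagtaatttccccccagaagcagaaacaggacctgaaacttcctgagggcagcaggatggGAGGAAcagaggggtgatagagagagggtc
C1qc: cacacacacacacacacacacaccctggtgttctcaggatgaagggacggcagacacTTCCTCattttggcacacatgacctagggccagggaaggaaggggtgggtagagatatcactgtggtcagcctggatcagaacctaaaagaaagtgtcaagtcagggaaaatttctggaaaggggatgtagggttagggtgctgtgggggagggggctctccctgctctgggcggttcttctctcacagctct
Mrc1: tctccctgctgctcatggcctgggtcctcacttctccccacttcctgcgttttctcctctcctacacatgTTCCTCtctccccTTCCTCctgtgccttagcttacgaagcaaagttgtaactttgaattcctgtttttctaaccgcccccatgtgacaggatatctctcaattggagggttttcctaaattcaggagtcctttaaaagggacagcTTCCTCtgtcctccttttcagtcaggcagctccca
Cd68: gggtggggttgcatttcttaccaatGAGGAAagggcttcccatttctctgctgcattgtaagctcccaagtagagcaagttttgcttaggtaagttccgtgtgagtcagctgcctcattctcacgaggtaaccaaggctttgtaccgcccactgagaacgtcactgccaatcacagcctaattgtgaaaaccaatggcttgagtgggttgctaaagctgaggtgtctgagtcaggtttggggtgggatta
In *C1qb* the letters began 30 bases before the start site and in *C1qc* 193 bases before it. *Mrc1* had them 3 times, beginning 180, 167 and 35 bases before the start. *Cd68* had them once, 225 bases before the start, but its printed window lies within the locus measured here, which ran past the annotated start. The annotated *C1qc* gene ends at 136892936, so the last printed bases of its window lie inside the gene's full extent. In *Cx3cr1* and *Fcer1g* these letters were not in this window.

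Depth differed between the groups. The low FPKM values of short single-exon loci were whole multiples of 1 fragment, and this gave totals of 1.77, 4.63 and 1.38 times 1000000 fragments for SSC replicates 1, 2 and 3. On the same scale the totals were between 13.7 and 15.9 for SSCiPSC and between 13.2 and 17.5 for fiPSC. For the macrophage genes, which have several exons, fragments were estimated from these totals and the transcript length, and their counting intervals rest on that estimate. For the 8 genes other than *Cd68*, a value rested on 5 to 193 estimated fragments in SSC (median 25.5), on 0 to 18 in SSCiPSC (median 4) and on 2 to 63 in fiPSC (median 10). Fragments were rounded to whole numbers for the next count. Of 24 such values in each group, 8 in SSCiPSC and 2 in fiPSC rested on fewer than 3 fragments, and none in SSC.

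The labels of the groups were checked with marker genes. The germ line genes *Gfra1* (37.7, 34.1 and 23.9 FPKM in SSC replicates 1, 2 and 3) and *Zbtb16* (72.0, 77.4 and 51.9 FPKM) were present in each SSC library and did not exceed 0.171 and 0.157 FPKM in iPSC. The most abundant germ line gene in SSC, *Dazl* (194, 263 and 174 FPKM), reached 42.3 FPKM in iPSC. Of 11 germ line genes tested, 8 were higher in SSC than in each iPSC group and 3 were lower, *Etv5*, *Sall4* and *Lin28a* (log2 differences from SSCiPSC of -1.87, -1.26 and -1.14), which pluripotent cells also express. Of the pluripotency genes, *Pou5f1* was the most abundant in SSC (16.2, 12.4 and 10.4 FPKM) and ranged from 579 to 877 FPKM in iPSC, and *Nanog* was listed at 0 in the 3 SSC libraries and ranged from 270 to 483 FPKM in iPSC. The SSC libraries also held transcripts of other testicular cells, such as the Sertoli cell gene *Cst12* (197, 271 and 206 FPKM) and the Leydig cell gene *Cyp17a1* (54.4, 45.5 and 71.0 FPKM). SSC replicate 3 stood apart in what follows, with the highest value of each macrophage gene, and was the shallowest library. Fewer cells of a type and less RNA per cell cannot be told apart in these libraries.

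Transcripts of 8 macrophage genes were higher in SSC than in SSCiPSC, and those of 7 of them were higher in SSC than in fiPSC. The medians of the 8 genes were 3.37 and 2.99 on the log2(FPKM + 1) scale, a scale that understates the change of low genes. *Cd68* was not called in either comparison, and *Adgre1* was called against SSCiPSC only. Tests were made with limma on log2(FPKM + 1) with Benjamini-Hochberg adjustment over all loci tested and a threshold of 0.05, and SE is the standard error of the log2 difference. Of all loci tested, 24.1% were higher in SSC than in SSCiPSC and 23.7% higher in SSC than in fiPSC. The SSC values of 8 and 7 genes lay above every value of SSCiPSC and of fiPSC, which held for 28.7% and 28.5% of all loci. The median log2 difference over all loci was -0.11 and -0.17. The 8 genes passed the filter on low values through the SSC libraries alone, so their number called is not support by itself. They were below 1 FPKM in every SSCiPSC library, so the filter also fixed their separation from SSCiPSC, which is not support either. Taking a gene alone, the smallest two-sided p that an exact permutation of 3 and 3 libraries allows is 0.1.

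**Figure D1:**
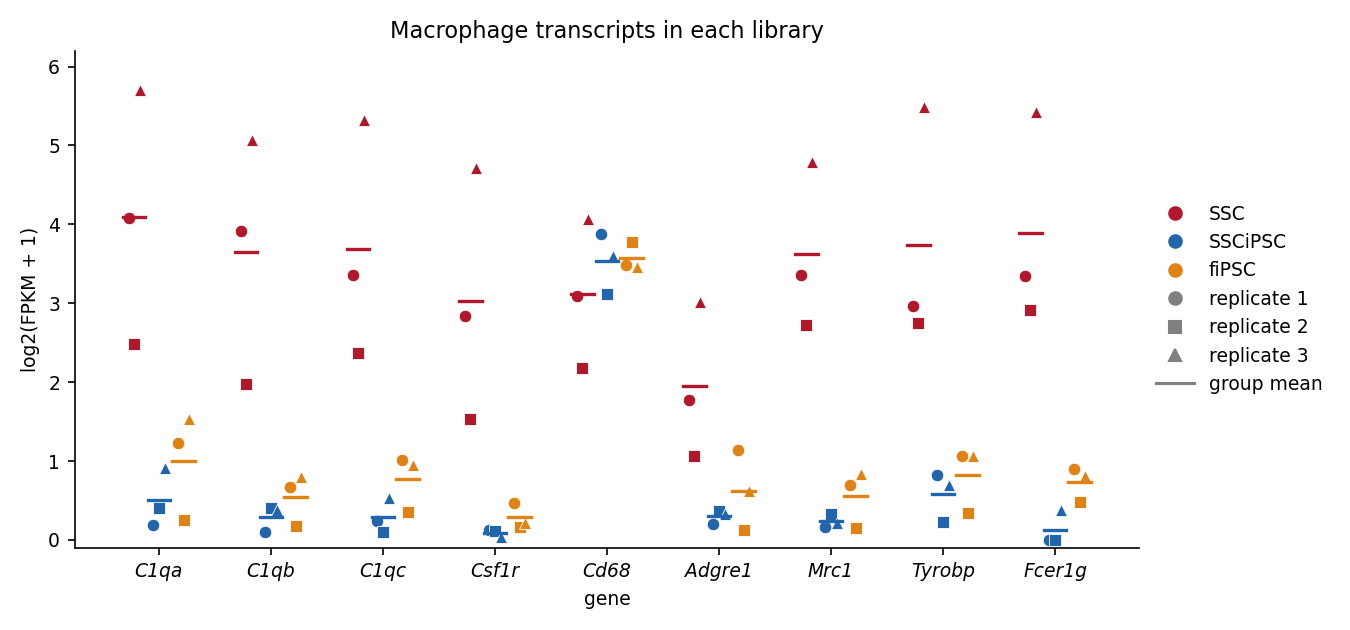
Level of each macrophage gene as log2(FPKM + 1) on the vertical axis, in the 9 libraries (colour, group; symbol, replicate; line, mean of 3 libraries). For 8 genes the SSC libraries lie above the SSCiPSC libraries, SSC replicate 3 is the highest library of each gene, and *Cd68* overlaps in the 3 groups.

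*C1qa*, which encodes the A chain of C1q, had the highest mean of the set in SSC. *C1qa* was at 15.8, 4.61 and 51.1 FPKM in SSC replicates 1, 2 and 3, at 0.142, 0.324 and 0.883 FPKM in SSCiPSC and at 1.35, 0.190 and 1.89 FPKM in fiPSC. The lowest SSC library was above the highest iPSC library, and replicate 3 was far above replicate 2. The log2 difference from SSCiPSC was 3.58 (SE 0.78, n = 3 and 3, limma adjusted p = 0.00896) and from fiPSC 3.08 (SE 0.83, limma adjusted p = 0.0212).

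*C1qb* and *C1qc* encode the other chains. *C1qb* was at 14.1, 2.93 and 32.7 FPKM in SSC, 0.0714, 0.327 and 0.297 FPKM in SSCiPSC and 0.594, 0.128 and 0.733 FPKM in fiPSC. *C1qc* was at 9.30, 4.18 and 39.2 FPKM in SSC, 0.183, 0.0700 and 0.445 FPKM in SSCiPSC and 1.02, 0.274 and 0.940 FPKM in fiPSC. For both genes no SSC value overlapped an iPSC value, and both followed the order of replicates of *C1qa*. The log2 differences from SSCiPSC were 3.36 (SE 0.75, limma adjusted p = 0.00993) for *C1qb* and 3.40 (SE 0.72, limma adjusted p = 0.00832) for *C1qc*. Against fiPSC they were 3.11 (SE 0.77, limma adjusted p = 0.0156) and 2.92 (SE 0.74, limma adjusted p = 0.0175). FPKM is scaled to length, so the chains can be set side by side. *C1qa* was the highest of the C1q genes in each SSC library, and *C1qb* was above *C1qc* in replicate 1 but below it in replicates 2 and 3. Within each SSC library the 95% Poisson intervals of the C1q genes overlapped, so counting error alone leaves this order unsettled.

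*Csf1r*, the receptor on which most macrophages depend, was at 6.17, 1.89 and 25.2 FPKM in SSC. It was at 0.0920, 0.0795 and 0.0241 FPKM in SSCiPSC and at 0.383, 0.124 and 0.165 FPKM in fiPSC. No SSC value overlapped an iPSC value, and the ratio of SSC replicate 3 to replicate 2 was the highest of the set. The log2 difference from SSCiPSC was 2.94 (SE 0.76, limma adjusted p = 0.0178) and from fiPSC 2.74 (SE 0.77, limma adjusted p = 0.0254).

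*Mrc1*, the mannose receptor CD206 that takes up glycoproteins, was at 9.27, 5.60 and 26.7 FPKM in SSC. It was at 0.122, 0.257 and 0.157 FPKM in SSCiPSC and at 0.619, 0.109 and 0.780 FPKM in fiPSC. No SSC value overlapped an iPSC value, whereas the iPSC groups overlapped each other, and with 86, 135 and 193 estimated fragments in the SSC libraries it was the best counted gene of the set. The log2 difference from SSCiPSC was 3.39 (SE 0.53, limma adjusted p = 0.00236) and from fiPSC 3.07 (SE 0.55, limma adjusted p = 0.00448).

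*Adgre1*, which encodes the surface receptor F4/80 used to mark mouse macrophages, was the lowest of the set in SSC with 2.43, 1.10 and 7.05 FPKM. It was at 0.148, 0.284 and 0.259 FPKM in SSCiPSC, below each SSC library. In fiPSC it was at 1.205, 0.0887 and 0.532 FPKM, and fiPSC replicate 1 was above SSC replicate 2. The log2 difference from SSCiPSC was 1.65 (SE 0.48, limma adjusted p = 0.0283). From fiPSC it was 1.33 (SE 0.54, limma adjusted p = 0.0854), which did not pass the threshold.

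*Tyrobp*, the adaptor DAP12, was at 6.83, 5.75 and 43.7 FPKM in SSC, 0.762, 0.173 and 0.624 FPKM in SSCiPSC and 1.08, 0.272 and 1.10 FPKM in fiPSC. *Fcer1g*, the common gamma chain of Fc receptors, was at 9.19, 6.53 and 42.0 FPKM in SSC and at 0.867, 0.392 and 0.752 FPKM in fiPSC. In SSCiPSC *Fcer1g* was listed at 0 in replicates 1 and 2, where 3 fragments would be 0.361 and 0.411 FPKM, and at 0.3002 FPKM in replicate 3. Both adaptors were high in SSC replicate 3, close to each other in SSC replicates 1 and 2, and apart from iPSC. The log2 differences from SSCiPSC were 3.15 (SE 0.74, limma adjusted p = 0.0120) for *Tyrobp* and 3.77 (SE 0.66, limma adjusted p = 0.00364) for *Fcer1g*. Against fiPSC they were 2.91 (SE 0.75, limma adjusted p = 0.0186) and 3.17 (SE 0.66, limma adjusted p = 0.00790).

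*Cd68*, a lysosomal membrane protein of phagocytes, went against the rest of the set. It was at 7.53, 3.51 and 15.8 FPKM in SSC, 13.7, 7.65 and 11.1 FPKM in SSCiPSC and 10.2, 12.7 and 9.95 FPKM in fiPSC. The 3 groups overlapped, and the iPSC values were above those of any other member in iPSC. The log2 difference from SSCiPSC was -0.42 (SE 0.49, limma adjusted p = 0.515) and from fiPSC -0.46 (SE 0.47, limma adjusted p = 0.447). How much of this value came from the 38.8% of the locus outside the gene was not tested. Within SSC, *Cd68* followed the same order of replicates as the other members.

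**Figure D2:**
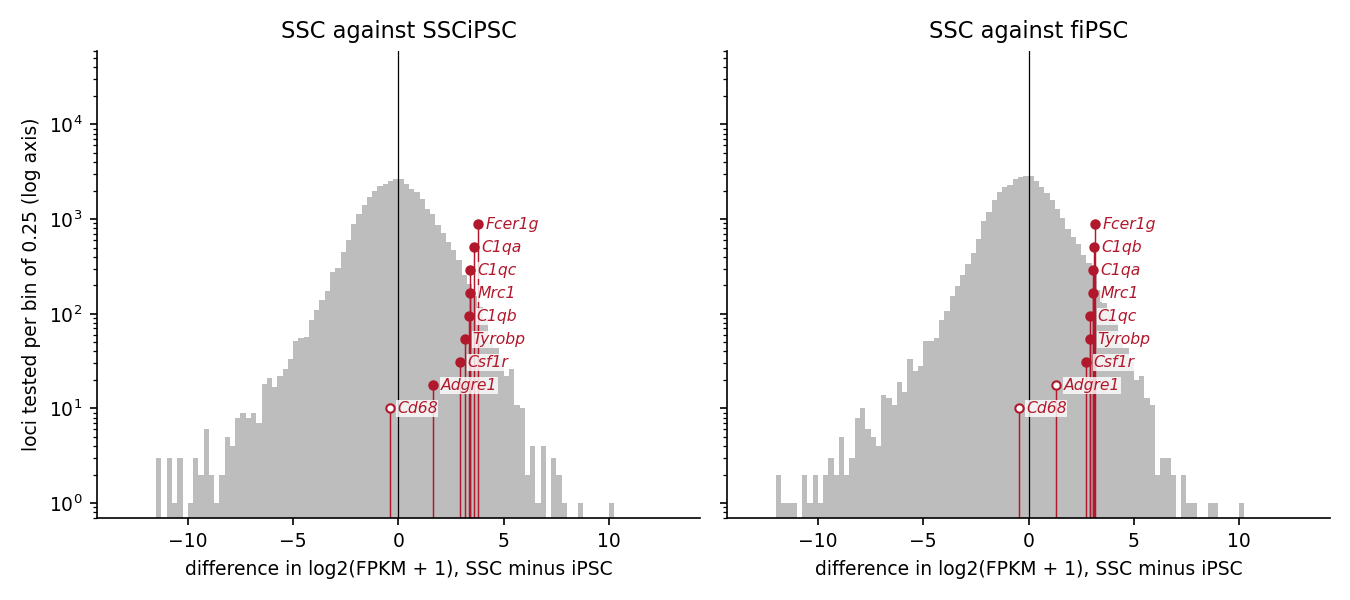
Number of loci (log axis, bins of 0.25) by their difference in log2(FPKM + 1) between SSC and each iPSC group, with the 9 macrophage genes placed at their own difference in red (filled, adjusted p below 0.05; open, not called; the height of a name carries no value). In both comparisons 7 genes lie between 2.74 and 3.77 on this scale, *Adgre1* is lower, and *Cd68* is near 0.

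The size of these differences depends on the value added before the logarithm, since the iPSC values are low. With 0.1 in place of 1 FPKM added, the same 7 genes ran from 4.45 (*Tyrobp*) to 6.44 (*Fcer1g*) against SSCiPSC and from 3.91 (*Tyrobp*) to 4.48 (*Csf1r*) against fiPSC, and *Adgre1* was at 3.10 and 2.37. *Csf1r*, the lowest of the 7 against fiPSC with 1 FPKM added, was then the highest, and the number of genes called was 8 and 7 on both scales.

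Without SSC replicate 3, the library with the highest values, 8 genes were called higher in SSC than in SSCiPSC and 7 higher than in fiPSC, as with all libraries, and *Cd68* was called lower in SSC than in fiPSC (log2 difference -0.94, limma adjusted p = 0.0489). The median difference of the 8 genes fell to 2.61 and 2.19 on the log2 scale. More calls were lost when an iPSC library was left out. With 1 fiPSC library left out, whichever it was, 2 genes were called against fiPSC, *Mrc1* and *Fcer1g*. The log2 differences of the 5 genes that lost the call stayed between 2.67 and 3.35 (limma adjusted p from 0.0536 to 0.0909). With 1 SSCiPSC library left out the number against SSCiPSC was 5 or 6. *Csf1r* and *Adgre1* lost the call whichever it was, with log2 differences of 2.91 to 2.96 and 1.61 to 1.69. *Tyrobp* lost it without SSCiPSC replicate 2, with a log2 difference of 2.98. The limma adjusted p of these lost calls ran from 0.0569 to 0.103. Without SSC replicate 1 the numbers were 7 and 5.

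SSC replicate 3 differed from the other SSC libraries in these transcripts. All 9 genes had the order replicate 3, replicate 1, replicate 2 from high to low, an order found in 12.4% of the 6795 named genes with a mean of at least 5 FPKM in SSC and a value above 0 in each SSC library. The ratio of replicate 3 to replicate 2 ranged from 4.49 for *Cd68* to 13.4 for *Csf1r*, with a median of 7.61. A ratio of at least 4 was found in 0.603% of the 6795 genes, and the median ratio over these genes was 0.914. *Adgre1*, with a mean of 3.53 FPKM in SSC, is not among the 6795. A high ratio was not particular to the macrophage genes, as the median was 7.57 for the neutrophil genes described below. The ratio was 11.1 for *C1qa*, 11.1 for *C1qb* and 9.36 for *C1qc*, whereas *Mrc1* had 4.76.

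The 95% Poisson intervals of the fragments of replicates 3 and 2 were separate for 9 of 9 genes. Those of replicates 3 and 1 were separate for 8 genes, all but *Cd68*. Those of replicates 1 and 2 were separate for 4 genes, *C1qa*, *C1qb*, *Csf1r* and *Mrc1*. For *C1qa* the interval was 10.2 to 23.4 FPKM in replicate 1, 2.76 to 7.21 FPKM in replicate 2 and 39.2 to 65.4 FPKM in replicate 3. For *Tyrobp*, with 5 fragments in replicate 1, it was 2.31 to 15.6 FPKM in that library. These intervals cover counting error only, and fragments from PCR copies are not independent molecules.

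**Figure D3:**
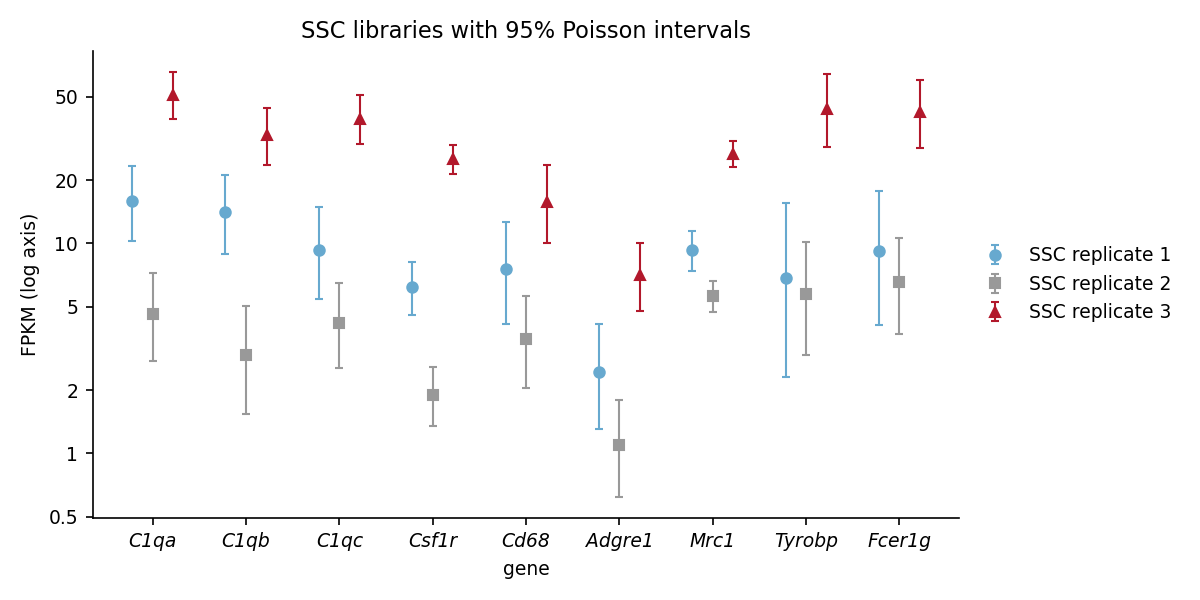
FPKM (log axis) of the 9 macrophage genes in the 3 SSC libraries, with 95% Poisson intervals of the estimated fragments as bars. Replicate 3 is above replicate 2 beyond the bars for each gene, and replicates 1 and 2 overlap for *C1qc*, *Cd68*, *Adgre1*, *Tyrobp* and *Fcer1g*.

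The composition of the set differed less between SSC libraries than its total. The sum of the 8 genes other than *Cd68* was 73.1, 32.6 and 268 FPKM in SSC replicates 1, 2 and 3, so that replicates 1 and 2 held 27.3% and 12.2% of the sum of replicate 3. *C1qa* made up 21.7%, 14.1% and 19.1% of these sums. *C1qb* moved most, with 19.2%, 9.01% and 12.2%, and *C1qc* made up 12.7%, 12.8% and 14.6%. *Fcer1g* made up 12.6%, 20.03% and 15.7%, and *Tyrobp* 9.35%, 17.6% and 16.3%. *Mrc1* made up 12.7%, 17.2% and 9.97%, *Csf1r* 8.44%, 5.79% and 9.43%, and *Adgre1* 3.32%, 3.37% and 2.64%. The shares of the adaptors were lowest in replicate 1, that of *C1qa* in replicate 2 and that of *Mrc1* in replicate 3.

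Other genes of macrophages and of their pathways were followed in lists. Of 26 other macrophage genes, 15 had their own locus and 13 were tested against SSCiPSC, of which 8 were higher in SSC and none lower, with a median log2 difference of 2.36, where 24.1% of all loci were higher and 26.2% lower. Against fiPSC 6 of 13 were higher and none lower, with a median of 1.85, where 23.7% of all loci were higher and 28% lower. These shares are the background for each list below. A gene under 1 FPKM in each iPSC library could pass the filter on low values through SSC alone, which fixes its direction, so the counts of the lists are a description. *Lgmn*, a lysosomal protease that other cells also make, was the highest in SSC with 81.5, 74.2 and 98.5 FPKM and at least 26.6 FPKM in each iPSC library. *Pf4*, a chemokine, was at 8.61, 3.29 and 31.5 FPKM in SSC, and *Ctss*, a protease of antigen processing, at 8.52, 4.70 and 25.6 FPKM. The chemokine *Ccl3* was at 3.24, 4.96 and 31.1 FPKM. Among the SSC libraries, 14 of the 15 genes were highest in replicate 3, and 10 had the order of the macrophage members. Of MHC class II genes, which present antigen, 2 of 3 tested were higher in SSC than in each iPSC group, *Cd74* (10.6, 9.70 and 18.6 FPKM) and *H2-Ab1* (2.98, 1.59 and 5.33 FPKM). The other gene tested, *H2-Eb1*, was not called, with log2 differences of -0.67 from SSCiPSC and -0.33 from fiPSC.

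Of the transcription factors of macrophages, 3 of 9 had a locus of their own, and both of those tested were higher in SSC than in each iPSC group. *Spi1* was at 2.75, 2.52 and 13.4 FPKM in SSC and did not exceed 0.634 FPKM in iPSC (log2 difference from SSCiPSC 2.23, limma adjusted p = 0.0189). *Irf8*, a factor of monocytes and dendritic cells, was at 4.13, 5.40 and 3.52 FPKM in SSC (log2 difference from fiPSC 1.86, limma adjusted p = 0.00130). *Spi1* was highest in replicate 3 like the members, and *Irf8* was lowest there.

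Ligands of Csf1r and Cx3cr1 were called higher in SSC than in each iPSC group (2 of 2 tested), and had a higher FPKM than *Csf1r* in each SSC library. *Csf1* was at 29.9, 25.9 and 32.6 FPKM in SSC and did not exceed 1.17 FPKM in iPSC (log2 difference from SSCiPSC 4.06, limma adjusted p = 7.86e-05). *Cx3cl1*, the ligand of Cx3cr1, was at 11.7, 15.7 and 29.96 FPKM in SSC and did not exceed 0.301 FPKM in iPSC (log2 difference from SSCiPSC 3.98, limma adjusted p = 0.000357). The SSC libraries thus lay close together for *Csf1* and far apart for its receptor.

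Among the complement genes that work with C1q, 2 of 4 tested were higher in SSC than in each iPSC group and none was lower, where 24.1% and 23.7% of all loci were higher. *C1ra*, a protease of the C1 complex, was at 7.67, 10.9 and 11.6 FPKM in SSC and did not exceed 0.526 FPKM in iPSC. *C3ar1*, the receptor for the C3a fragment, was at 3.46, 2.498 and 14.2 FPKM in SSC and did not exceed 0.562 FPKM in iPSC. *C3ar1* followed the order of the C1q genes, and *C1ra*, which many connective tissue cells make, was lowest in replicate 1. *Serping1*, the C1 inhibitor, and *Cfp*, properdin, were at 4.24 to 16.6 FPKM in SSC and were not called.

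Of 6 partners of the adaptors tested against SSCiPSC, 1 was higher in SSC and 2 were lower, where 24.1% of all loci were higher and 26.2% lower. Against fiPSC 2 were higher and 2 lower, where 23.7% of all loci were higher and 28% lower, so the counts were near the background in both comparisons. The adaptor *Lcp2* was higher in SSC (4.55, 6.38 and 14.6 FPKM), and was listed at 0 in 5 of 6 iPSC libraries. The kinase *Lyn* was called higher against fiPSC only (2.32, 2.98 and 8.53 FPKM in SSC), with a limma adjusted p of 0.0526 against SSCiPSC and 0.0282 against fiPSC. The kinase *Syk* was lower in SSC, at 3.61, 5.21 and 5.81 FPKM against at least 18.9 FPKM in iPSC.

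Genes of mast cells, of neutrophils and of leukocytes in general were also higher in SSC, mostly with another order of the SSC libraries. Of 6 mast cell genes with a locus of their own, 5 were higher in SSC than in each iPSC group, and *Kit*, which is also expressed in germ cells and pluripotent cells, was lower. The most abundant, *Mcpt4*, was at 24.7, 99.8 and 218 FPKM in SSC and listed at 0 in the iPSC libraries. Its order, replicate 3, then 2, then 1, was that of 5 of the 6 genes and of 17.4% of the 6795 genes, whereas replicate 1 was above replicate 2 for each of the 9 macrophage genes. The summed mast cell genes were at 74.8, 289 and 748 FPKM in SSC. The defining genes *Fcer1a*, *Ms4a2* and *Tpsab1* had no locus of their own.

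Of neutrophil genes, 3 of 7 had a locus of their own, and each was called higher in SSC than in each iPSC group, a direction that the filter fixed, as none reached 1 FPKM in an iPSC library. *S100a8*, which some macrophages also express, was at 6.86, 15.1 and 114 FPKM in SSC and listed at 0 in iPSC, and the defining genes *Ly6g*, *Mpo* and *Elane* had no locus of their own. The list summed to 12.3, 25.6 and 224 FPKM. Of 6 leukocyte genes tested that blood cells share, 4 were higher in SSC than in each iPSC group. The most abundant was *Lcp1* (4.51, 9.25 and 31.6 FPKM), *Ptprc*, which encodes CD45, was at 0.581, 0.666 and 9.28 FPKM, and the 8 genes with a locus summed to 19.9, 34.0 and 134 FPKM. Of these 8 genes, 7 had the order of the mast cell genes. Lists of T cells, NK cells and dendritic cells had no gene with a locus of its own, and of the B cell list *Cd79b* alone had one (1.87, 1.07 and 2.39 FPKM in SSC), which was not called.

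The median ratio of SSC replicate 1 to replicate 2 was 2.21 for the macrophage members, 0.673 for the shared leukocyte genes, 0.455 for the neutrophil genes and 0.230 for the mast cell genes. It was also above 1 in other lists, with 2.05 for the 7 endothelial genes, each of which was higher in replicate 1, 2.75 for 2 erythroid genes, 1.59 for 4 MHC class II genes, 1.46 for 4 peritubular myoid genes and 1.13 for 2 Leydig cell genes, so it was not particular to the macrophage genes. *Tyrobp* and *Fcer1g*, the members that mast cells and neutrophils also express, had the lowest ratios of the set, 1.19 and 1.41. The part of these cells in the values of *Tyrobp* and *Fcer1g* was not tested. The median ratio of replicate 3 to replicate 2 was 7.57 for the neutrophil genes, near the 7.61 of the members. It was 5.37 for the other macrophage genes, 3.74 for MHC class II, 3.03 for the shared leukocyte genes and 2.80 for the mast cell genes. Germ line and Sertoli cell genes had no such spread, with median ratios of replicate 3 to replicate 2 of 0.703 and 0.834 and of replicate 1 to replicate 2 of 0.966 and 0.994. Fibroblast genes, which summed to 97.5, 89.5 and 289 FPKM in SSC, had median ratios of 3.50 and 1.16.

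**Figure D4:**
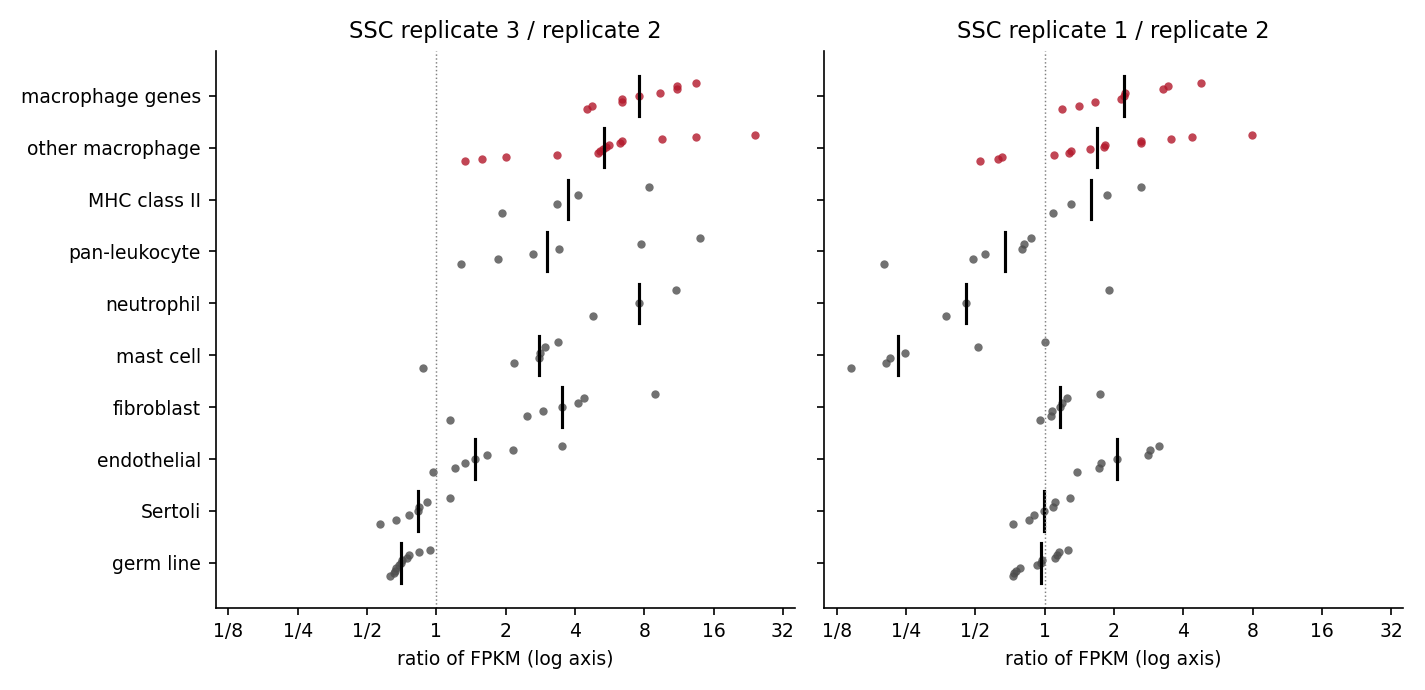
Ratio of FPKM between SSC libraries (log axis) for each gene of 10 lists, as points, with the median of the list as a black line and a dotted line at a ratio of 1 (left, replicate 3 to 2; right, replicate 1 to 2). The macrophage genes lie to the right in both panels, the mast cell genes other than *Kit* to the right in the left panel and mostly to the left in the right panel, and germ line and Sertoli genes lie near 1.

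In iPSC the macrophage transcripts were low but mostly not absent. The sum of the 8 genes was 1.52, 1.52 and 2.99 FPKM in SSCiPSC and 7.11, 1.58 and 6.89 FPKM in fiPSC, with 7 or 8 of the genes above 0 in each library. Between fiPSC and SSCiPSC, *Cd68* was the one member past the filter on low values (log2 difference 0.04, limma adjusted p = 0.964), in a comparison in which 0.0678% of 33948 loci were called. Without that filter the mean of fiPSC was above that of SSCiPSC for 9 of 9 genes, but none was called, and the lowest adjusted p was 0.3198 with limma, for *Fcer1g*. It was the 1 gene with an unadjusted p under 0.05 (0.00683, limma), a rule met by 10.8% of all loci in the same fit.

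The sum of fibroblast genes, which also mark feeder cells, was 30.7, 21.0 and 44.9 FPKM in SSCiPSC and 35.4, 11.1 and 43.7 FPKM in fiPSC. The most abundant of the 8 was *Col3a1*, at 2.93 to 14.1 FPKM in iPSC. The 3 iPSC libraries with the highest sum of macrophage genes, SSCiPSC replicate 3 and fiPSC replicates 1 and 3, were also the 3 with the highest sum of fibroblast genes. Taken singly, 2 of the 8 macrophage genes had those 3 libraries on top. The part of feeder cells in the macrophage transcripts of iPSC was not tested.

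**Figure D5:**
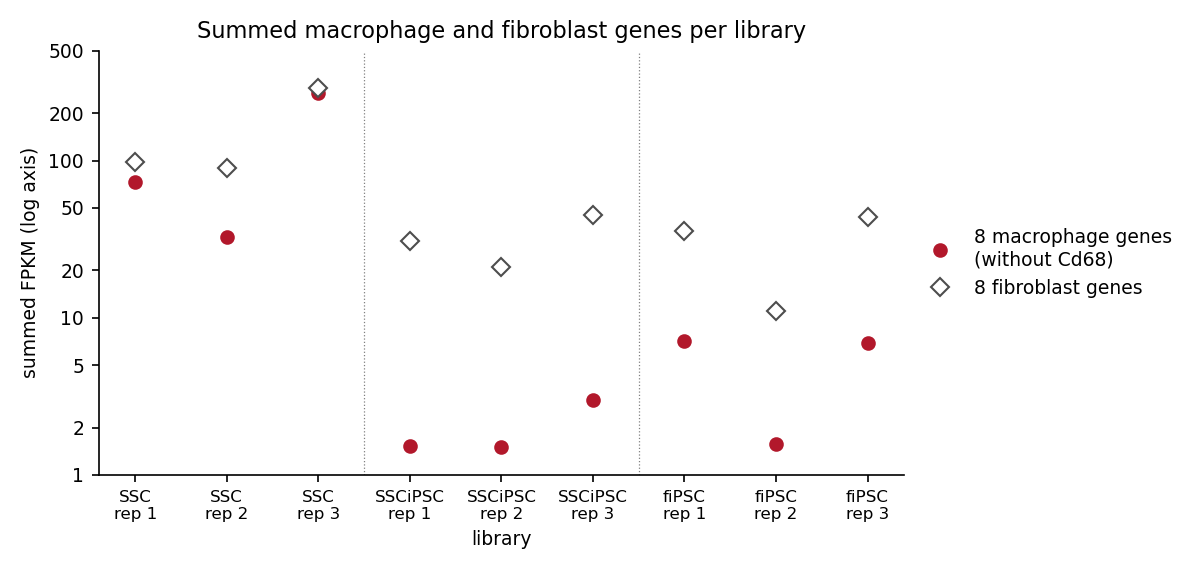
Summed FPKM (log axis) of the 8 macrophage genes other than *Cd68* (red) and of 8 fibroblast genes (open diamonds) in each library. The macrophage sum is 32.6 to 268 FPKM in SSC and 1.52 to 7.11 FPKM in iPSC, and the fibroblast sum is 11.1 to 44.9 FPKM in iPSC.

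The genes most like the macrophage set were sought among 6791 named genes other than the members with a mean of at least 5 FPKM in SSC, values of 0 allowed. The measure was Pearson's r over the 9 libraries with the mean log2(FPKM + 1) of 8 members. *Cd68*, which went against the rest of the set, was left out of that mean. The 9 libraries share the large step between SSC and iPSC, so high values are common and are given as a description. Among the 10 highest were *Ctss* (0.996), *Mpeg1* (0.995), *C3ar1* (0.994), *F13a1* (0.987), *Penk* (0.986), *Ltbr* (0.985), *Flnc* (0.985), *Sorcs2* (0.985) and *Synj1* (0.983). Of the 10, 4 stood in the lists above, among them the first of all, *Ctss*. *Mpeg1*, a pore-forming protein of phagocytes, was at 4.23, 2.31 and 11.8 FPKM in SSC, and *F13a1*, a coagulation factor subunit made by resident macrophages, at 8.11, 2.30 and 14.7 FPKM. Others are known from other tissues, such as *Flnc*, a muscle filamin, at 17.8, 8.31 and 32.7 FPKM, and *Penk*, proenkephalin, at 14.4, 6.82 and 37.5 FPKM.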

How the data were processed

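According to the study's methods and the submitters' processing notes, paired end reads were trimmed with Trimmomatic 0.32, aligned with TopHat2 2.0.9 and Bowtie2 2.1.0 and quantified with Cufflinks 2.2.1, and the authors deposited 1 FPKM value per locus and library. The notes name the build mm9, but the coordinates were those of GRCm38, since 91.6% of stranded loci lay on a coding gene of the same strand, against 37.3% and 37.2% after a shift of 1000000 bp. Ribosomal RNA was removed and a stranded mRNA kit was used, per the labels. Strand was read from the order of the table, and 98.1% of loci that matched both ends of a gene had its strand.

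A locus was named where it and a RefSeq gene of that strand covered each other by at least 50% (10482 genes), and the locus with the highest mean was used. Of 54914 loci, 1 with a blank value was left out. Depth was estimated from single-exon loci of 600 to 6000 bp, whose low values came out whole within 0.1 of a fragment. The intervals (95%) and the floor of 3 fragments rest on it.

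Groups were compared with limma 3.58.1 in R 4.3.3 (eBayes with a trend) on log2(FPKM + 1). Loci entered with 1 FPKM or more in 3 or more of the 6 libraries, or in 2 when a library was left out. As FPKM is not a count, no count model was used. On simulated data for SSC against SSCiPSC (33575 loci), 69% of loci changed by 2 and 96% of those changed by 4 on the log2 scale were recovered, with 8.33% of calls false. Few loci were changed, and only loci with higher means over the 6 libraries than the macrophage genes other than *Cd68*. The rates were therefore not measured at the levels of these genes. Other steps used numpy 2.4.6, pandas 2.3.3, scipy 1.17.1 and matplotlib 3.10.9 under Python 3.11.15.

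The text names the members, up to 4 genes of each list with the highest mean in SSC, the called genes of pathway lists, defining markers listed at 0 or without a locus of their own, and the 10 genes most like the members. *Gfra1*, *Etv5*, *Sall4*, *Lin28a*, *Kit* and *Ptprc* were added with their values seen, and 2 genes that this rule names are not reported here. The members and lists were chosen with earlier results of these data known. Alternatives were another pseudocount, other filters, quantile and median-ratio scaling, no trend, all libraries in 1 fit, the replicate number as a block, the locus with the largest overlap, and each library left out.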

Additional observations from a re-analysis of the deposited data

How the results depend on the processing

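The direction and the call of the macrophage genes were compared under each alternative. Each gene with a value had 1 locus, so taking the locus with the largest overlap could not change a value. Those values are counted below among the 264 and among the 234. Of 264 values of single genes in SSC against an iPSC group, 234 kept direction and side of the threshold, 25 lost the call, 3 gained one and 2 turned direction. Both turns were of *Cd68* without SSC replicate 2, and between the iPSC groups *Cd68* also turned without SSCiPSC replicate 2 (-0.17) and without fiPSC replicate 2 (-0.06). With a library left out, its log2 difference ranged from -0.90 to 0.048 against SSCiPSC, from -0.94 to 0.0060 against fiPSC and, between the iPSC groups, from -0.17 to 0.22. Without SSC replicate 3, *Cd68* was called lower in SSC than in fiPSC (limma adjusted p = 0.0489).

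The number of macrophage genes higher in SSC than in SSCiPSC was 5 of 6 tested when a mean of 5 FPKM over all libraries was required, where fewer genes are tested. It ranged from 5 to 8 when a library was left out, lowest without SSCiPSC replicate 2. The number higher than in fiPSC ranged from 2 to 8, with 2 without fiPSC replicate 1, 2 or 3. Without SSC replicates 1, 2 and 3, 5, 8 and 7 genes were called against fiPSC. Each fit with a library left out holds fewer samples. The cause of the lower numbers was not tested. *Adgre1* passed the threshold against fiPSC with all 9 libraries in the fit (limma adjusted p = 0.0359) and without SSC replicate 2 (0.0327), over a range of 0.0327 to 0.255. Over all loci, a required mean of 5 FPKM left 9707 loci called against SSCiPSC (3271 higher and 6436 lower in SSC, against 8814 and 9582) and 10158 against fiPSC (3632 higher and 6526 lower, against 9022 and 10658).

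Between fiPSC and SSCiPSC the 23 calls became 11 with that mean required, 11 with all 9 libraries, 6 with the replicate block, and 6 to 20 when a library was left out (9 without SSCiPSC replicate 2, 6 and 8 without fiPSC replicates 1 and 3). Same-numbered libraries did not deviate together (r from -0.266 to 0.0307, and from -0.159 to 0.241 for pairs with other numbers). These correlations cannot tell whether same-numbered libraries share an animal or line. With the replicate block, 8 and 7 macrophage genes were called, as without it. Under median-ratio scaling the median of all loci was -0.29 and -0.35, and 8 and 7 macrophage genes were called. Few fragments limit the values of SSCiPSC and fiPSC, of which 8 and 2 were under 3 fragments after rounding and give no order. They also limit *Tyrobp* in SSC, which rested on 5 fragments in 1 library.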
